A study of Mus musculus with 10 samples.

Results

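Trimethylation of lysine 4 of histone H3 (H3K4me3) was compared between undifferentiated XT67E1 mouse embryonic stem (ES) cells and the same line after exposure to all-trans retinoic acid (atRA) for 4 days. XT67E1 carries the strain label C3H/Pgk*129, and, as background, it is a female line. The undifferentiated cells were kept in serum with LIF, the cytokine that sustains mouse ES cells, on gelatin-coated plastic. Another H3K4me3 library, from embryoid bodies (EBs) grown for 10 days without LIF, and 3 H3K27me3 libraries of the same conditions are set beside the comparison. These 6 libraries belong to a series of 10, and each condition and mark has 1 library. The labels give no concentration of atRA and no share of cells that had differentiated. In a mixed culture, fewer cells with the mark and less of the mark per cell cannot be told apart.

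The members are the autosomal 2 kb bins (mm9, chromosomes 1 to 19) that held 20 or more H3K4me3 reads in the 2 libraries together, a read being counted at the midpoint of its 200 bp interval. They number 14870 of 1236152 bins, or 1.20%. The files of the mark held 2252395 reads each, of which 2156836 undifferentiated and 2153974 after atRA were autosomal. Read numbers can therefore be compared directly, and 1 read equals 0.464 RPM (a read number scaled to 1000000 autosomal reads) in both. The share of autosomal reads that fell in the kept bins was 23.5% undifferentiated, 21.8% after atRA and 17.4% in EBs. EB reads took no part in keeping the bins, so the EB share cannot be compared with the other 2. Because nothing was replicated, no p-value is given. Intervals are exact 95% binomial intervals that cover counting error only. A bin was called higher or lower at a ratio of 2-fold or more with an interval that excluded equality.

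H3K4me3 is deposited around the starts of active genes and of many genes that are silent but poised. H3K27me3 is laid down by Polycomb complexes at silent genes, and in ES cells the starts of many developmental regulators carry both marks. Retinoic acid acts through nuclear receptors that bind pairs of short half-sites in DNA, and it drives ES cells out of pluripotency, which rests on factors such as Oct4 (the product of Pou5f1), Nanog and Sox2.

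No gene annotation of mm9 was used, so most loci are given by position only. Gene names were limited to 16 starts that were known as mm9 positions from background knowledge. Of these, 3 (Nanog, Pou5f1 and Sox2) were noted with no bin in view. Another 6 (Gata6, Pdgfra, Cyp26a1, Igf2r, Gadd45g and Spp1) were noted with a called bin nearby already in view. That these 6 lie at or near called bins is therefore not a result. The remaining 7 were noted after the calls had been made, with no called bin at their start in view.

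A pair of promoter windows is shown because each stands for a direction of change and holds a motif known for its pathway. They are RefSeq sequences of GRCm38.p6, from 250 bases before to 50 bases after the annotated start, both on the plus strand. Cyp26a1, whose product degrades retinoic acid, is at chr19:37697558-37697857 in that build. Its capitals mark a DR5 element, which is 2 receptor half-sites in one direction with 5 bases between, read on the opposite strand. Nanog is at chr6:122707239-122707538, and its capitals mark the joint Oct4 and Sox2 motif, also on the opposite strand.
Cyp26a1: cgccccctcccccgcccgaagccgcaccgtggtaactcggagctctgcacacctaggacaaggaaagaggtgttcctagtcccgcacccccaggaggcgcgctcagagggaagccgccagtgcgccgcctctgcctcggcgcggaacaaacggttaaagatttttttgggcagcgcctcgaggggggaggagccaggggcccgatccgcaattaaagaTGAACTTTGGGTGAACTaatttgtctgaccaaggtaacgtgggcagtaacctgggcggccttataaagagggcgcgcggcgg
Nanog: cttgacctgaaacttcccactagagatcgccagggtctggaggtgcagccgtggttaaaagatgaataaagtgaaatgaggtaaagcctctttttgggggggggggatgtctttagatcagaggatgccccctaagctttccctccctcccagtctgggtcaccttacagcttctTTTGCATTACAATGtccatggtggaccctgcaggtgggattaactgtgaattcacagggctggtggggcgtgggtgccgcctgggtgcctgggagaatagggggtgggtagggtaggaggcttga
Each half-site of the DR5 element was AGGTCA or one of 3 close variants, and both strands were searched. The joint motif was searched in a single fixed form, CATTGT, any base and ATGCAAA. Variants of the joint motif were not counted, so its share depends on that form. The element occurred in 32 of the 32851 RefSeq promoter windows (0.0974%), and the joint motif occurred in 2 (0.00609%), both of them windows of Nanog. Windows were given for 10 of the 16 placed genes, 13 windows in all, and no other placed gene held either motif there in the forms searched. These matches describe letters in the window and not binding.

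After 4 days of atRA, 708 of the 14870 bins were higher (4.76%) and 1818 were lower (12.2%), while 12344 were not called. A ratio of 4-fold or more was reached by 110 of the higher bins and by 607 of the lower bins. The median log2 ratio over all kept bins was -0.06, with quartiles of -0.53 and 0.35. In the higher bins the median was 9 reads undifferentiated and 27 after atRA, and in the lower bins it was 28 and 8. In EBs the median was 18 reads in the higher bins and 12 in the lower bins, against 22 over all kept bins. EB reads took no part in keeping or calling the bins, and a comparison of EBs would share the undifferentiated library. The EB values are therefore given side by side only.

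**Figure D1:**
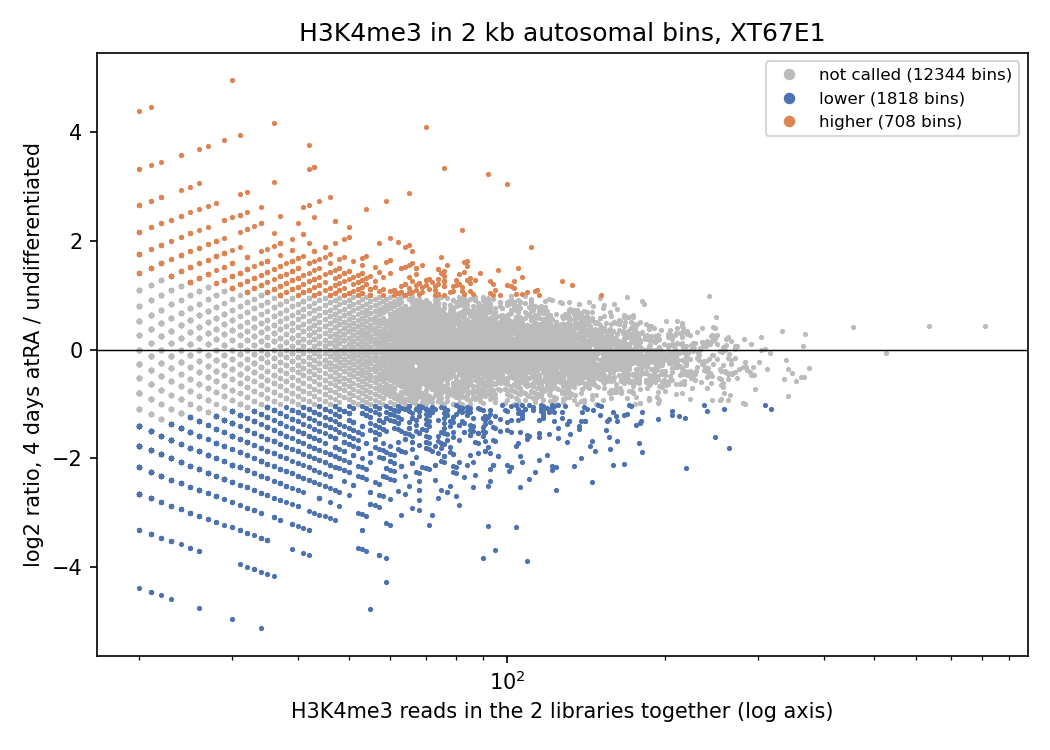
H3K4me3 log2 ratio (4 days atRA over undifferentiated, vertical axis) against the reads in the 2 libraries together (horizontal log axis), 1 point a 2 kb bin, coloured by call. Among bins with 160 or more reads none was higher and 27 were lower, while both kinds of call are common among bins with few reads.

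Calls depended on how many reads a bin held. Bins with 20 to 39 reads were higher in 7.27% of cases and lower in 18.8%. Bins with at least 80 but under 160 reads were higher in 1.26% and lower in 5.09%. None of the 690 bins with 160 or more reads was higher, and 27 (3.91%) were lower. The strongest marks of the genome were thus seldom called, and the calls lie mainly at places with a weak or moderate mark in one of the libraries. Only 3 higher bins had no read in undifferentiated cells, and 57 had up to 3 reads. Of the lower bins, 8 had no read after atRA and 232 had up to 3.

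Most regions were a single called bin. A neighbouring bin with too few reads could not be called, so these lengths describe calls and not the width of the mark. Joining neighbouring bins gave 664 higher regions, of which 626 (94.3%) were a single bin, and 1439 lower regions, of which 1164 (80.9%) were a single bin. Regions of 6 kb or longer numbered 8 among the gains and 96 among the losses. The longest gain spanned 8 kb at chr2:115886001-115894000, with 18 reads undifferentiated and 107 after atRA, and H3K27me3 reads there went from 129 to 25. In EBs the same stretch held 50 H3K4me3 and 109 H3K27me3 reads. The longest losses spanned 14 kb each. At chr2:162876001-162890000 the reads were 337 and 101, at chr3:88372001-88386000 they were 253 and 91, and at chr1:168056001-168070000 they were 180 and 44. Their log2 ratios were -1.73, -1.46 and -2.01. Each stretch kept reads after atRA, so the mark there was weaker and not absent. A gain of 6 kb at chr5:75548001-75554000, which includes the start of Pdgfra, went from 10 to 71 reads.

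The calls were spread over all 19 autosomes. The share of kept bins that were higher ran from 2.53% on chromosome 17 to 8.15% on chromosome 13. The share that were lower ran from 8.67% on chromosome 13 to 16.8% on chromosome 17. Chromosome 13 had 47 higher and 50 lower bins, and chromosome 17 had 20 and 133. Most called bins had no neighbouring bin with 20 or more reads in the library where they were low. A neighbouring bin held 20 or more reads in that library for 160 of the 708 higher bins (22.6%) and for 423 of the 1818 lower bins (23.3%). For bins not called, the share was 34.6% in undifferentiated cells and 33.5% after atRA.

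The 4 placed starts described here that were higher after atRA were those of Cyp26a1, Gata6, Pdgfra and Gadd45g, counted in windows of 4 kb centred on the start. Over all 15237 autosomal 4 kb bins that met the same minimum, 4.11% were higher and 12.9% were lower. All 4 were noted with their bins in view.

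Cyp26a1 had 6 reads undifferentiated, 57 after atRA and 14 in EBs, a log2 ratio of 3.05 (95% interval 2.04 to 4.75). H3K27me3 was abundant throughout, with 102 reads undifferentiated and 89 after atRA. The start of this retinoic acid hydroxylase gene thus gained H3K4me3 while its H3K27me3 was not called different (log2 ratio -0.19, interval -0.62 to 0.23).

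Gata6 and Pdgfra belong to the endoderm list; GATA6 is a transcription factor that specifies primitive endoderm and Pdgfra encodes a receptor found on those cells. Gata6 had 4 reads undifferentiated, 47 after atRA and 39 in EBs, with a log2 ratio of 3.26 (2.11 to 5.49). Pdgfra had 2, 42 and 19 reads in the same order, with a log2 ratio of 3.84 (2.45 to 7.49). Both starts kept their H3K27me3, with 93 and 105 reads at Gata6 and 112 and 116 at Pdgfra. Sox17, an endoderm transcription factor and the other placed gene of that list, had 4 H3K4me3 reads in each of the 3 libraries, too few to be kept, beside 112 H3K27me3 reads both before and after atRA. Gadd45g, which encodes a small stress-response protein, had 13 reads undifferentiated, 96 after atRA and 32 in EBs, a log2 ratio of 2.79 (2.04 to 3.85). Its H3K27me3 went from 66 to 31 reads (log2 ratio -1.06, -1.75 to -0.45). H3K27me3 was therefore lower after atRA at 1 of the 4 starts, Gadd45g, and had no called difference at the other 3. Over all 15237 kept 4 kb bins the median H3K27me3 log2 ratio was 0.001. The share of those bins called for H3K27me3 was not counted. H3K27me3 calls at these starts, and at the starts below, thus have no general rate beside them.

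**Figure D2:**
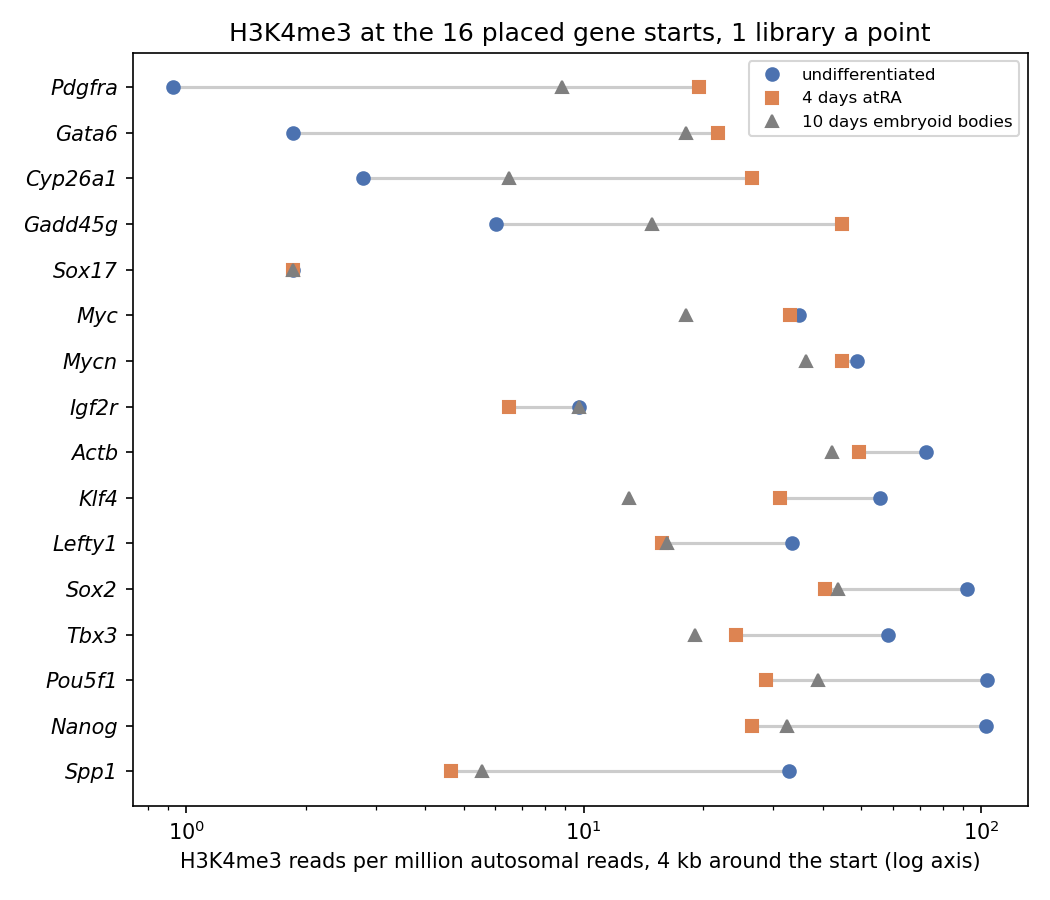
H3K4me3 (RPM, log axis) in the 4 kb around the 16 placed gene starts, 1 library a point: undifferentiated, 4 days of atRA and 10-day EBs, with a line joining the first 2. Pdgfra runs from 2 to 42 reads and Spp1 from 71 to 10, and Sox17 has 4 reads in each library.

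The list of core and naive pluripotency genes had 32 members, of which 8 could be placed, and all 8 were kept. Of these, 6 were lower after atRA, 2 were not called and none was higher, with a median log2 ratio of -1.22 beside -0.08 over all kept 4 kb bins. Of all those bins, 12.9% were lower and 4.11% were higher, so that none of the 8 was higher is near the general share. Without Spp1, whose start was noted with its bin in view, 5 of 7 were lower. Nanog had 222 reads undifferentiated, 57 after atRA and 70 in EBs, a log2 ratio of -1.94 (-2.41 to -1.53). Pou5f1 had 223, 62 and 84 reads, a log2 ratio of -1.83 (-2.27 to -1.43). Both starts kept a smaller peak after atRA. Sox2 had 199, 87 and 94 reads, with a log2 ratio of -1.18 (-1.57 to -0.82).
Spp1, which encodes the secreted protein osteopontin, had 71, 10 and 12 reads and the lowest log2 ratio of the placed starts, -2.71 (-3.95 to -1.86). Tbx3, a T-box factor of the naive network, had 126, 52 and 41 reads (log2 ratio -1.26, -1.77 to -0.80). Lefty1, an inhibitor of Nodal signalling, had 72, 34 and 35 reads (log2 ratio -1.06, -1.71 to -0.47). The 6 genes thus span a wide range of loss, from Spp1 at one end to Lefty1, close to the threshold of the rule, at the other.
The remaining 2 were not called over 4 kb. Klf4 had 120, 67 and 28 reads (log2 ratio -0.83, -1.29 to -0.40), and Mycn had 105, 96 and 78 (log2 ratio -0.13, -0.54 to 0.29). H3K27me3 was higher after atRA at both, with 7 and 22 reads at Klf4 (log2 ratio 1.52, 0.38 to 3.12) and 9 and 36 at Mycn (1.89, 0.92 to 3.24). In the 2 kb bins, part of the Klf4 window was called: chr4:55542001-55544000, beside the start, went from 61 to 25 H3K4me3 reads (log2 ratio -1.25, -2.02 to -0.59) and from 2 to 17 H3K27me3 reads (2.59, 1.01 to 6.25). Over 4 kb, the H3K27me3 interval included equality at each of the 6 starts that lost H3K4me3. At Spp1 the H3K27me3 reads, 6 and 4, were below the minimum of 20. At Pou5f1 they were 7 and 17 (log2 ratio 1.17, -0.06 to 2.79), an interval that also holds a 2-fold rise. Of the called 2 kb bins at these 6 starts, 1 was called higher for H3K27me3, chr17:35642001-35644000 at Pou5f1, with 2 and 10 reads (1.88, 0.09 to 5.55). It was lower for H3K4me3, from 124 to 38 reads. Calls for H3K27me3 in 2 kb bins had no minimum of H3K27me3 reads. This bin and the Klf4 bin each held fewer than 20 in the 2 libraries together.

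**Figure D3:**
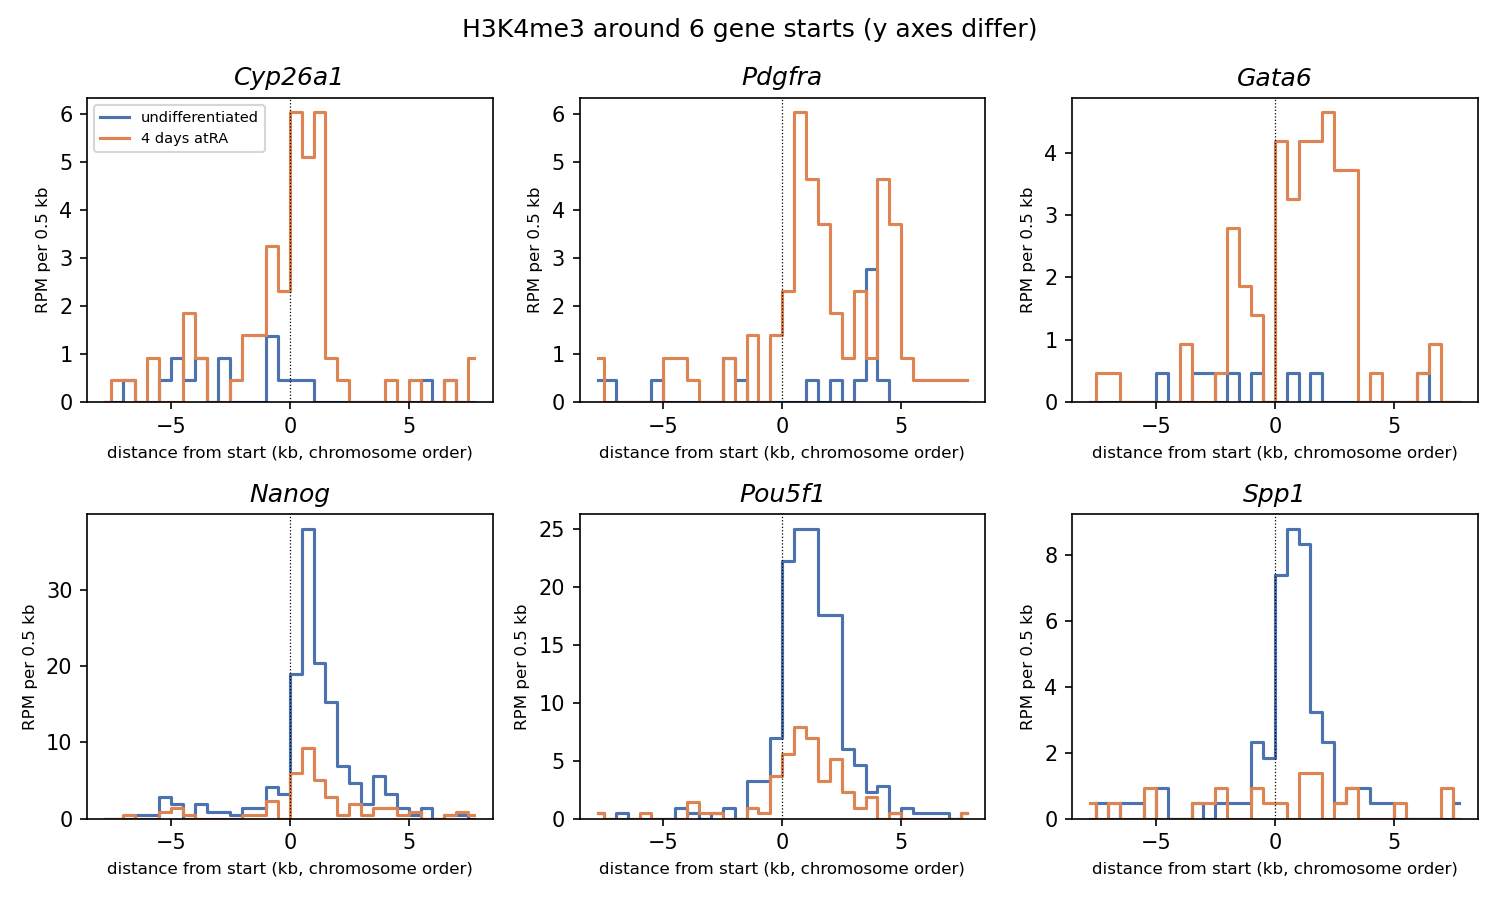
H3K4me3 (RPM in steps of 0.5 kb, vertical axes differ) by distance in kb from 6 gene starts, undifferentiated and after 4 days of atRA. The reads pile up mostly just past the start, in chromosome order, after atRA at Cyp26a1, Pdgfra and Gata6 and in undifferentiated cells at Nanog, Pou5f1 and Spp1.

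The ES cell identity of the undifferentiated library could be checked on 4 of the 6 ES markers (Pou5f1, Nanog, Sox2 and Klf4), which held 120 to 223 reads there. No marker of feeder or fibroblast, parietal endoderm, neural or blood cells could be placed, so the part of other cells in the calls was not tested. Of the retinoic acid list 1 gene was placed, and none of the mesoderm or neural lists. In all, 13 of the 178 listed genes had a start.
Among the starts outside the losses and gains, Actb, which encodes cytoplasmic actin and served as a housekeeping gene, had 157 reads undifferentiated, 106 after atRA and 91 in EBs (log2 ratio -0.56, -0.93 to -0.20). Myc had 75, 71 and 39 (log2 ratio -0.08, -0.57 to 0.41). The interval at Actb excluded equality, but the ratio did not reach the 2-fold of the rule, and Myc was not distinguishable between the libraries. At Myc, which encodes a growth-promoting transcription factor, H3K27me3 was higher after atRA, with 12 and 33 reads (log2 ratio 1.39, 0.47 to 2.55). The start of Igf2r, the imprinted gene for a receptor that clears insulin-like growth factor 2, had 21, 14 and 21 reads (log2 ratio -0.55, -1.67 to 0.46).

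Of the 20 highest bins with 30 or more reads, 4 lay at placed starts and 16 are given by position. Their log2 ratios ran from 2.66 to 4.96. The highest was chr2:147870001-147872000, with 0 reads undifferentiated, 30 after atRA and 13 in EBs. Its log2 ratio was 4.96, with an interval from 2.94 and no upper limit. Setting the 0 to 3 reads gave a 10.0-fold rise, which leaves out counting error and is not a lower bound. Next among the unnamed bins came chr8:28088001-28090000, with 3, 67 and 26 reads (log2 ratio 4.09, 2.87 to 6.80), and chr13:29042001-29044000, with 2, 40 and 34 reads (3.77, 2.38 to 7.42). All 3 carried H3K27me3, with 48, 85 and 34 reads undifferentiated and 47, 59 and 25 after atRA.
The bin chr17:12934001-12936000 went from 6 to 70 reads, with 37 in EBs (log2 ratio 3.34, 2.35 to 5.04). It lies 26.5 kb from the start of Igf2r, which itself was not called. The gain was thus away from the Igf2r start.
At chr1:170360001-170362000 the H3K4me3 reads went from 3 to 39 and H3K27me3 from 20 to 1, and at chr11:18918001-18920000 from 5 to 37 and from 42 to 10. These bins had the largest H3K27me3 decreases, by ratio, among the 20 highest. H3K27me3 was lower in 6 of the 20 highest bins and higher in none. Before atRA, 18 of the 20 held at least 3 times the mean number of H3K27me3 reads per bin. Of all kept bins, 2.06% were lower and 4.57% higher for H3K27me3, and 8.67% reached that level before atRA. Among all bins higher for H3K4me3 the shares were 9.89%, 1.27% and 37.4%. That none of the 20 was higher for H3K27me3 is thus near the general share.

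The 20 lowest bins had no placed start within 2 kb, and their log2 ratios ran from -5.13 to -3.68. They held 30 to 103 reads undifferentiated, 0 to 6 after atRA and 0 to 20 in EBs. At chr4:130176001-130178000 the reads were 34 and 0 (log2 ratio -5.13, interval up to -3.12 with no lower limit). At chr6:6088001-6090000 they were 30 and 0 (log2 ratio -4.95, interval up to -2.93 with no lower limit). Setting the 0 to 3 reads gave falls of 11.3-fold and 9.99-fold, which leave out counting error and are not lower bounds. The strongest of these marks in undifferentiated cells was at chr16:38446001-38448000, with 103 reads that fell to 6, and the next bin, chr16:38448001-38450000, went from 51 to 3. Together with their neighbours they form a 10 kb region of loss with 287 and 47 reads.
Other large losses were chr9:108554001-108556000, from 85 to 5 reads, chr4:133674001-133676000, from 89 to 6, and chr17:46982001-46984000, from 57 to 2. None of the 20 was rich in H3K27me3 before atRA, the most being 9 reads, and 5 of them were higher for H3K27me3 afterwards. Of all kept bins, 8.67% were rich before atRA and 4.57% were higher for H3K27me3. Of all lower bins, 3.63% were rich and 14.4% were higher, so the absence of rich bins is not particular to these 20. Some of the H3K27me3 calls rested on few reads, such as 0 and 12 at chr2:151848001-151850000. At chr1:193752001-193754000 H3K4me3 went from 54 to 1 and H3K27me3 from 4 to 17. In each of the 20, neither neighbouring bin held 20 reads after atRA. Neighbours with fewer reads were not counted as marked, and the 10 kb region at chr16:38444001-38454000 still held 47 reads after atRA. Whether a weaker mark remained beside the other bins was not tested.

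Some losses lay at a distance from pluripotency genes. The bin chr4:55492001-55494000, 51.3 kb from the start of Klf4, went from 39 to 2 reads, with 6 in EBs (log2 ratio -3.74, -7.38 to -2.33). It is one of the 20 lowest bins and was picked for its ratio, so that ratio cannot be compared with the one at the Klf4 start. Around Sox2, distances were counted from the bin that holds its start. Bins 108 and 114 kb away went from 27 to 6 and from 36 to 3 reads (the latter a log2 ratio of -3.21, -5.93 to -1.92). A bin 48 kb away went from 17 to 6. No bin within 200 kb of either start was called higher. Over all kept bins, 4.76% were higher and 12.2% were lower. The number of kept bins around these starts was not counted, so no share can be set beside those values. This neighbourhood was chosen after the lowest bins had been seen.

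H3K27me3 in the called bins comes from separate libraries, with 8380007 reads each. Before atRA, 37.4% of the bins that were higher for H3K4me3 afterwards held 3 or more times the mean H3K27me3 density, against 3.63% of the lower bins and 8.67% of all kept bins. After atRA the shares were 29.1%, 11.0% and 11.0%. Over all kept bins, 4.57% were higher and 2.06% were lower for H3K27me3. The same ratio and interval were required, but no minimum of H3K27me3 reads was set. Of the bins with higher H3K4me3, 9 (1.27%) were higher and 70 (9.89%) were lower for H3K27me3. Of the bins with lower H3K4me3, 262 (14.4%) were higher and 14 (0.770%) were lower. The marks thus moved in opposite directions more often than in the same direction in both classes, although most called bins had no called difference in H3K27me3. A bin with few H3K27me3 reads before atRA can hardly be called lower for it, so these shares depend on the starting level, which was not matched between the classes.
Summed over the higher bins, H3K27me3 went from 2.27 to 1.92 RPM per bin, a log2 ratio of -0.24 (-0.27 to -0.20). Summed over the lower bins, it went from 0.638 to 1.13 RPM per bin, a log2 ratio of 0.82 (0.78 to 0.86), and in bins not called from 1.02 to 1.08 RPM. The median lower bin held 4 H3K27me3 reads before and after atRA (0.499 RPM in both), so the summed rise was not that of a typical lower bin. Lower bins with 3 or more times the mean density went from 66 to 200 of 1818. The median went from 14 to 10 reads in the higher bins and from 5 to 4 in bins not called. In EBs the summed levels were 2.10, 1.16 and 1.24 RPM per bin in higher, lower and not called bins.

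**Figure D4:**
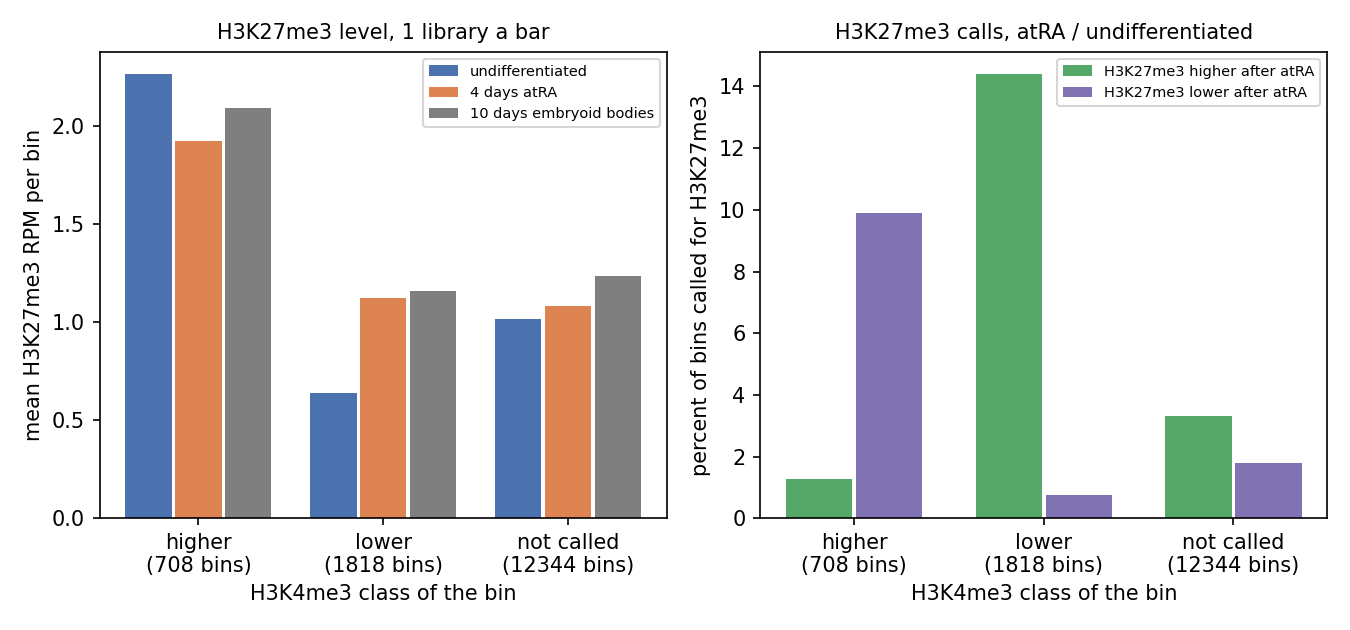
Left, mean H3K27me3 (RPM per 2 kb bin) in bins that were higher, lower or not called for H3K4me3 after atRA, 1 library a bar. Right, the percent of those bins called higher or lower for H3K27me3: 14.4% of bins with lower H3K4me3 were higher for H3K27me3, and 9.89% of bins with higher H3K4me3 were lower for it.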

How the data were processed

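The authors deposited mm9 read intervals of 200 bp with no value or strand, 1 file a library (build per the submitters' processing notes). The sources used here do not name the aligner, the filters or the interval extension. Files of a mark hold equal read numbers, so a difference in overall pull-down cannot be seen. Midpoints were counted in 2 kb bins and scaled to autosomal reads. The log2 ratio used a pseudocount of 1 read and an exact conditional binomial interval (Python 3.11.15 with numpy 2.4.6, pandas 2.3.3, scipy 1.17.1 and matplotlib 3.10.9).

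Loci were named by rule: the 20 highest and 20 lowest called bins with 30 or more reads, the 10 longest regions each way, and called bins within 2 kb of a listed gene's start. Regions joined called bins across a gap of up to 1 bin. The members, lists and tests were chosen with earlier results of these data known.

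No mm9 annotation was used. Of 219 starts first written down from memory, 202 were dropped, after the calls had been seen, because they had been reached through a remembered position in another build and an offset, or could not be told apart from such. No position of theirs was used. 1 further start is not reported here. The other 16 are remembered mm9 positions. The RefSeq table (GRCm38.p6) was used for their names and order only, which is a weak check, and their accuracy was not otherwise tested. The libraries of the other cell lines were not used here.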

Additional observations from a re-analysis of the deposited data

How the results depend on the processing

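No paired analysis was possible because each group has 1 library, and no library could be left out. The count of higher bins, 708, was 2745 with no minimum of reads, 187 with a minimum of 50 reads and 223 with the stricter interval listed as an alternative. The count of lower bins, 1818, was 4647, 539 and 994 under the same settings. Lower bins outnumbered higher bins under all 10 alternatives. Bins of 1 and 4 kb, bins shifted by 1 kb, a pseudocount of 5 reads, background scaling, median-of-ratios scaling and a scaling to bins with 100 or more reads, which was added after seeing the data, kept both counts within 1.5 times. The scalings moved all log2 ratios by -0.06 to 0.06, which is too little to reverse the direction of a called bin. The 20 highest and 20 lowest bins were chosen for their extreme ratios, so their calls could hardly be lost, and the next counts are no test of them. None of the 53 bins named by rule changed direction under a pseudocount of 5 reads or the 3 scalings, and 51 or more stayed called. The ratio at the Tbx3 bin starting at 120122001 on chromosome 5 (-1.04) passed just outside the rule under 3 of them (-0.99, -0.98 and -0.98), as did the Sox2 bin starting at 34546001 on chromosome 3 with the pseudocount of 5 reads (-0.998). The pluripotency genes called lower were 6 of 8 under each scaling, but Lefty1 stayed among them only narrowly. Its log2 ratio was -1.0008 with median-of-ratios scaling and -1.0004 with the scaling to bins with 100 or more reads. The share of lower bins with higher H3K27me3 was 10.3% in 1 kb bins, 16.6% in 4 kb bins and 9.27% with no minimum. The share of higher bins with lower H3K27me3 was 5.52% in 1 kb bins, 4.66% with no minimum and 16.1% with the stricter interval. At the minimum of 20 reads a 2-fold difference is often within counting error, so a bin that was not called was not shown to be unchanged.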
